A study of Mus musculus with 12 samples.

Results

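The 10 genes described are Notch pathway genes measured in mouse dermis on day 0 and day 7 of wounding: the receptors Notch1, Notch2, Notch3 and Notch4, the ligands Jag1, Jag2, Dll1 and Dll4, and the targets Hes1 and Nrarp. They were chosen by mouse symbol, all 10 were matched among the 55401 genes of the deposited table, and all 10 had a mean level of at least 1 FPKM (fragments scaled to transcript length and to the library's total), the minimum for testing, as did 14313 genes in all. The RNA came from C57BL/6 mice aged 6 weeks with paired wounds of equal size, either wild type (WT) or Cthrc1-/-, which lack the secreted collagen triple helix repeat protein Cthrc1. Dermis was taken on day 0 and on day 7, giving WT and Cthrc1-/- groups on each day, each of 3 samples that the study calls biological replicates (12 samples in all). No other allele or agent is named. The study asked how gene expression in the wounded dermis differs between the genotypes.

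Notch receptors are cut after they bind a ligand on a neighbouring cell, and the freed intracellular part enters the nucleus, binds the DNA-binding protein RBPJ and switches on target genes of the Hes and Hey families. In the skin the pathway is known for its part in keratinocyte differentiation and in hair follicle fate, and in vessels Dll4, Notch4, Jag1 and Notch3 act in endothelial and mural cells. Nrarp is a target that in turn restrains Notch signalling.

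Total counts ran from 48329668 to 76938132 per sample, and the 10 genes held between 144 counts (Notch4) and 24116 counts (Notch1) in a sample. Cthrc1, as labelled, was nearly lost in the 6 knockout samples (0 to 0.151 FPKM), while WT held 21.1 to 27.0 FPKM on day 0 and 74.0 to 106 FPKM on day 7. The tissue label was checked on marker lists. The 6 fibroblast markers summed to 337 to 6441 FPKM over the 12 samples. But basal keratinocyte markers, which belong to the epidermis, were also abundant (6 markers summing to 2202 to 9028 FPKM). Hair follicle markers (12 of 13 matched) summed to 14.2 to 17.9 FPKM in WT day 0, with Krt25, Krt73 and Krt33a at 0 in at least 1 library, against 261, 5313 and 13112 FPKM in Cthrc1-/- day 0 and 541 to 5693 FPKM on day 7. A pair of libraries stood apart. Cthrc1-/- day 0 replicate 3 had the highest hair follicle sum of that group and the lowest fibroblast (337 FPKM), endothelial (25.1 FPKM), mural (62.3 FPKM) and leukocyte (68.2 FPKM) sums. WT day 7 replicate 1 had the highest leukocyte sum (1079 FPKM) and the lowest basal (2202 FPKM) and suprabasal (178 FPKM) keratinocyte sums of all 12 samples. Values without one of these libraries are given beside many of the results, and in bulk tissue fewer cells of a type and less RNA per cell cannot be told apart.

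The DNA letters that RBPJ is best known to bind, GTGGGAA, which read as TTCCCAC on the opposite strand, were searched on both strands. The search covered the 250 bases before the RefSeq start sites of the genes (GRCm38.p6). Some of these sites lie inside the gene span given by GENCODE, as for Notch1 and Rbpj, and other start sites were not searched. Of 6 other pathway genes searched, Hes5, Hey2 and Lfng hold the motif and Mib2, Dlk1 and Rbpj do not. The windows of these 3 are shown beside that of Nrarp, which does not hold it; the motif stands in capitals and each sequence runs 5′ to 3′ on the strand of its gene.
Hes5, chr4:154960673-154960922, plus strand: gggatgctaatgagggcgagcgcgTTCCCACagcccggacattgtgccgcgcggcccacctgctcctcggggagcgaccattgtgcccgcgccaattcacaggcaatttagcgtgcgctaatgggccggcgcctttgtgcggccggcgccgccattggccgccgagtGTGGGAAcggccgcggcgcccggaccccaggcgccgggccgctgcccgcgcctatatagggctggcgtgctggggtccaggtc
Hey2, chr10:30842784-30843033, minus strand: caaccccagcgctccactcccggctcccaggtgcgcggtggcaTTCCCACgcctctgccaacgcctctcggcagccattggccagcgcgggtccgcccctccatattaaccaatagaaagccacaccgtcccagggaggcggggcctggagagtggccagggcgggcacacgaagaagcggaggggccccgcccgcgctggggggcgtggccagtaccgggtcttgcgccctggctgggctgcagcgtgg
Lfng, chr5:140607091-140607340, plus strand: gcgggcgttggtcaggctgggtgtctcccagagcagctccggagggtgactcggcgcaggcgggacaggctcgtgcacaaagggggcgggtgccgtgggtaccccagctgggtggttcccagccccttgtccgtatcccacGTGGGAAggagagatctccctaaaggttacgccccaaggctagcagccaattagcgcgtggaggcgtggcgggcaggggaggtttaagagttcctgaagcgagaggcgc
Nrarp, chr2:25180508-25180757, plus strand: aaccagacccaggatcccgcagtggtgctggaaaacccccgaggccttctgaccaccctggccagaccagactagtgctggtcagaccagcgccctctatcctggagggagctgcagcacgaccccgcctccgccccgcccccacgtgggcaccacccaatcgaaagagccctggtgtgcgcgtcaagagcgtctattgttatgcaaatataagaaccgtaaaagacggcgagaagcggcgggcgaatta
The Hes5 window holds the motif 2 times, beginning 226 and 83 bases before the start, on opposite strands. Hey2 has 1 copy 207 bases before the start and Lfng has 1 copy 109 bases before it. Of the 10 genes, 9 have a window in the table, and 0 of these 9 hold the letters in it. Hes1, Hey1 and Heyl have no entry in the table. Among all 32851 windows of that length 5.415% hold the motif and 0.1613% hold it at least 2 times. A match describes the letters only, and no binding was measured.

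On day 0 in WT, Hes1 was by far the highest of the 10 genes per length, at 76.5 ± 3.93 FPKM (SD, n = 3), followed by Jag2 at 29.0 ± 0.54 FPKM. Nrarp (16.2 FPKM), Notch1 (15.6 FPKM) and Jag1 (15.1 FPKM) came next, and these neighbours overlapped in range. Notch3 (13.4 FPKM), Dll1 (9.49 FPKM), Notch2 (7.36 FPKM), Dll4 (4.31 FPKM) and Notch4 (1.05 FPKM) followed with no overlap between neighbours. In the knockout on day 0 the order was Hes1 (46.7 FPKM), Nrarp (35.6 FPKM), Jag1 (30.1 FPKM), Notch1 (22.9 FPKM) and Jag2 (21.3 FPKM), each overlapping the next, and Dll4 (2.21 FPKM) and Notch4 (0.581 FPKM) were again last. In WT day 7 the first 7 genes, from Hes1 (23.2 FPKM) to Notch2 (12.5 FPKM), overlapped each with the next. In Cthrc1-/- day 7 Nrarp (33.1 ± 1.68 FPKM, n = 3) stood first, above Hes1 (26.9 ± 4.40 FPKM, n = 3) with no overlap, although the order of levels was not tested.

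**Figure D1:**
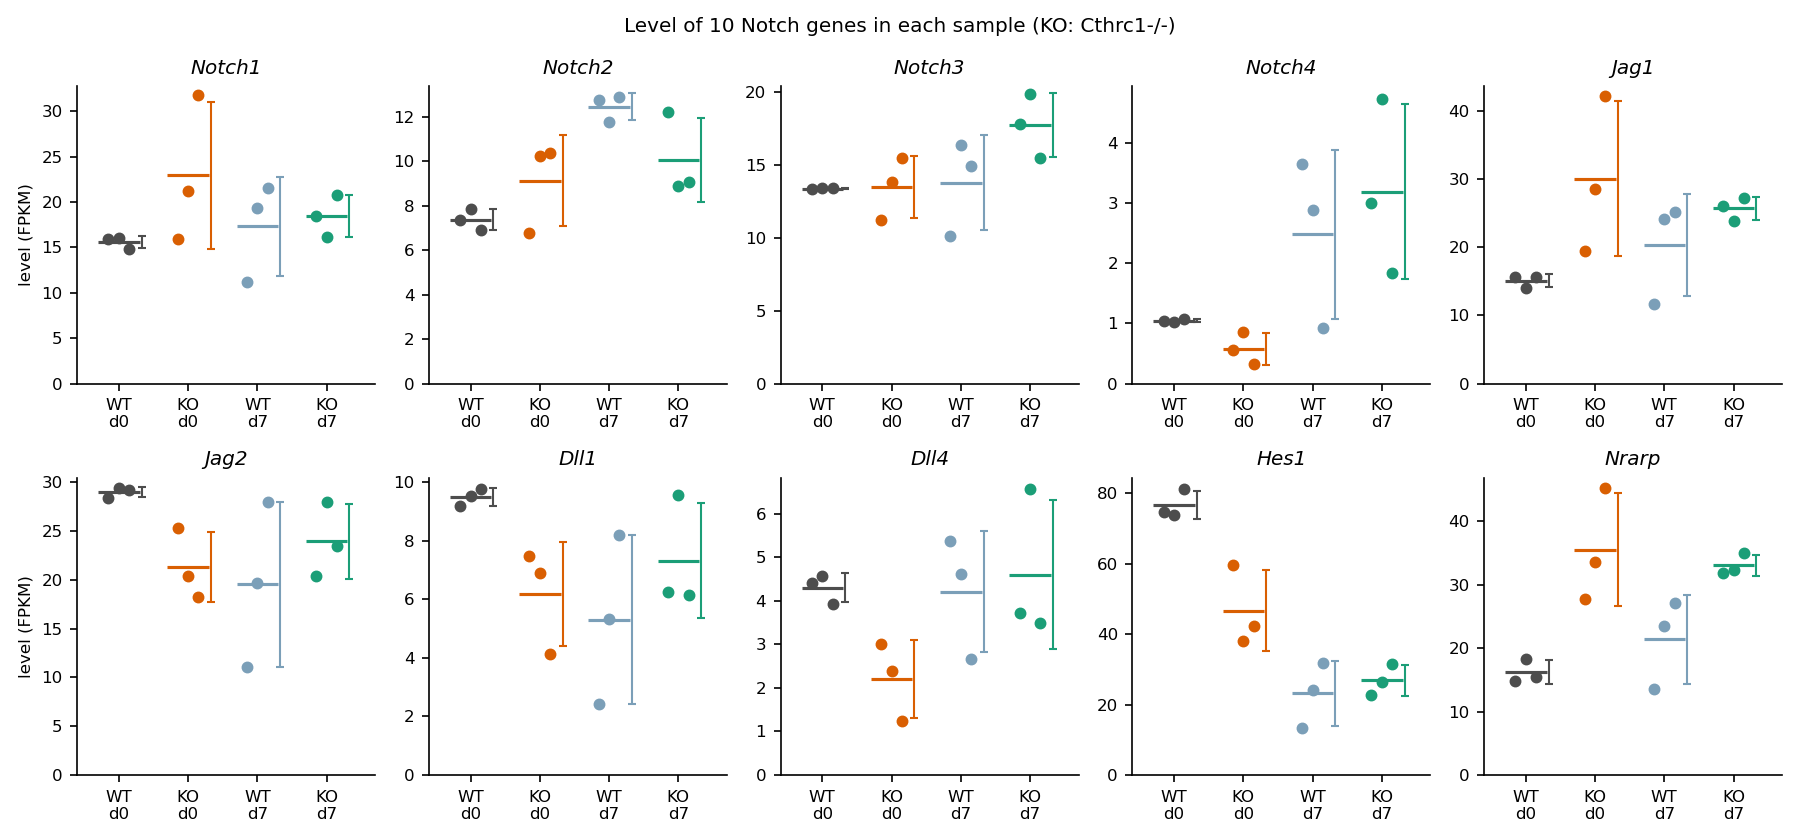
Level of each of the 10 genes in FPKM (vertical axis, from 0) in the 12 samples, by group on the horizontal axis (WT, wild type; KO, Cthrc1-/-; d0 and d7, day 0 and day 7). Points are samples, bars the group mean and brackets 1 SD; Hes1 lies at 73.9 to 81.1 FPKM in WT day 0 and at 13.4 to 31.9 FPKM in WT day 7, and Nrarp in Cthrc1-/- day 0 (27.8 to 45.3 FPKM) lies above WT day 0 (14.9 to 18.3 FPKM).

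Changes were tested with edgeR's quasi-likelihood test on the counts, in 1 fit of all 12 samples, and a gene was called where the Benjamini-Hochberg adjusted p over all 14313 genes was under 0.05. Of the 10 genes, Hes1 was called lower in WT day 7 than in WT day 0, and Nrarp was called higher in Cthrc1-/- than in WT on day 0. The other 8 genes were called in no comparison. In WT day 7 against day 0, 1 of 10 was called (1 lower, 0 higher), beside 13.1% of all genes tested (6.04% higher and 7.1% lower). In Cthrc1-/- day 7 against day 0, 0 of 10 were called, beside 1.46% of all genes (0.859% higher and 0.601% lower). Between the genotypes on day 0, 1 of 10 was called (1 higher), beside 5.78% of all genes (3.51% higher and 2.26% lower). Between the genotypes on day 7, 0 of 10 were called, beside 0.021% of all genes (3 genes), and DESeq2 also called 0 of 10. The interaction of genotype and day, which asks whether the day 7 change differs between the genotypes, was called for 0 of 10, beside 0.014% of all genes (2 genes), and for 0 of 10 with DESeq2.

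Before adjustment, edgeR gave p under 0.05 to 4 of the 10 genes for WT day 7 against day 0 (32.5% of all genes), to 2 for Cthrc1-/- day 7 against day 0 (18.1%), to 4 for the genotypes on day 0 (28.4%), to 1 for the genotypes on day 7 (5.46%) and to 2 for the interaction (15.1%). These shares lie near those of all genes in the first 3 comparisons, or rest on 1 or 2 genes. The median log2 change of the 10 genes was -0.11, 0.00, -0.32 and 0.25 in the same 4 comparisons, beside 0.00, -0.01, -0.05 and -0.01 over all genes. The median of the 10 genes for the interaction was 0.60, beside 0.02 over all genes. The genes did not share a direction there: 6 lay above 0 (51.54% of all genes), while Notch1, Notch2, Jag1 and Nrarp lay below. Comparisons that use the same group share its 3 libraries and are not independent of each other.

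The scale matters for small changes. edgeR's TMM factors set the median change of all genes near 0, while scaling by the total count put it at 0.20 (log2) for WT day 7 against day 0 and at 0.16 for Cthrc1-/- day 7 against day 0. The genes called in the WT comparison split into 864 higher and 1016 lower with TMM and into 1669 higher and 543 lower with total counts. The split went from 123 higher and 86 lower to 649 higher and 98 lower in Cthrc1-/- day 7 against day 0, and from 503 higher and 324 lower to 523 higher and 209 lower for the genotypes on day 0. The median change of the 10 genes in WT day 7 turned from -0.11 to 0.11. FPKM follow the total-count scale, so a group mean in FPKM can lie higher on day 7 where the log2 change is near 0.

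**Figure D2:**
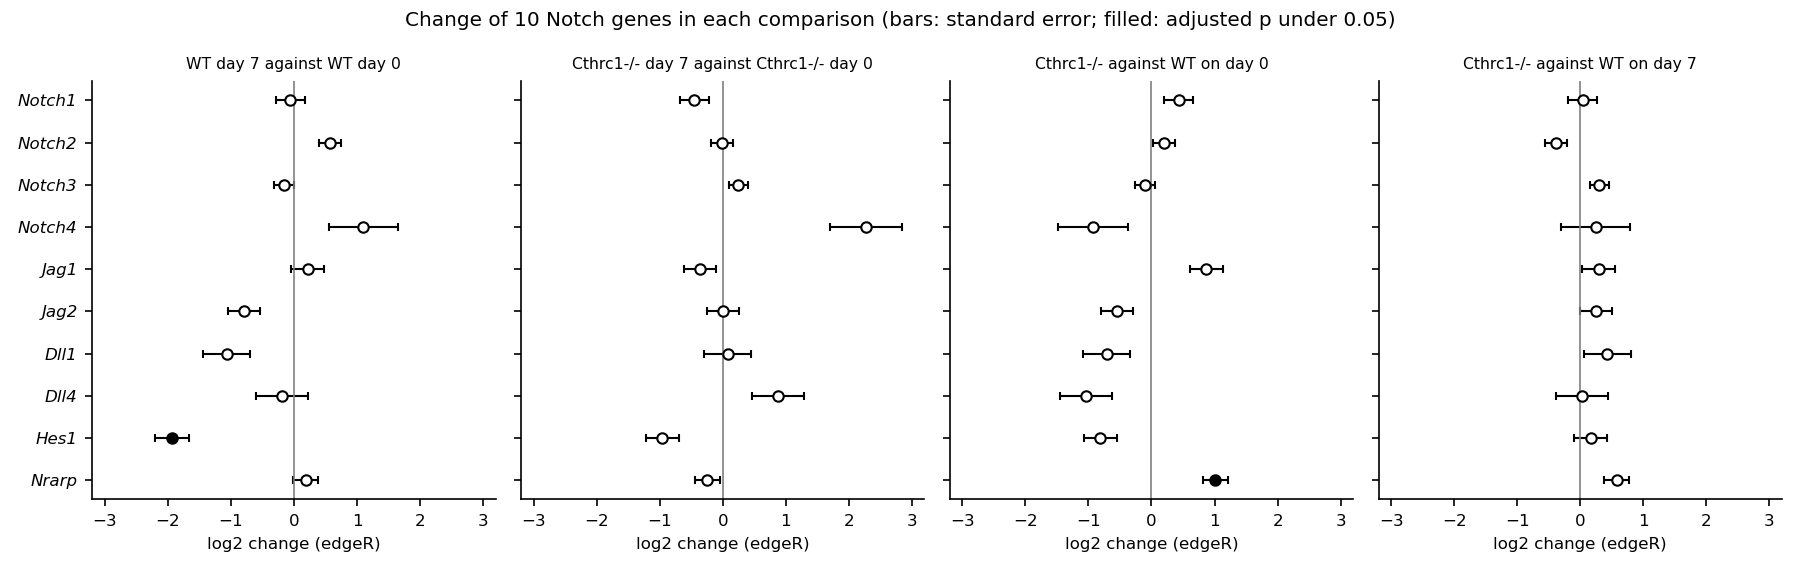
Log2 change by edgeR (horizontal axis) of the 10 genes (vertical axis) in 4 comparisons of 3 against 3 samples; bars are the standard error and filled points have an adjusted p under 0.05. The filled points are Hes1 in WT day 7 against WT day 0 (-1.94) and Nrarp in Cthrc1-/- against WT on day 0 (1.01).

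The receptors are described first. Notch1 (ENSMUSG00000026923, GRCm38, chromosome 2, 26457903 to 26516663, minus strand) is a receptor of the epidermis. WT samples held 15.9, 16.0 and 14.9 FPKM on day 0 and 11.2, 19.3 and 21.5 FPKM on day 7. Cthrc1-/- samples held 15.9, 21.2 and 31.8 FPKM on day 0 and 18.5, 16.1 and 20.7 FPKM on day 7. Replicate 3 of Cthrc1-/- day 0 stood high and replicate 1 of WT day 7 low, and every pair of compared groups overlapped. The log2 difference between the genotypes on day 0 was 0.43 ± 0.23 (SE; edgeR adjusted p = 0.239) and 0.19 without Cthrc1-/- replicate 3 (adjusted p = 0.642), and on day 7 it was 0.04 ± 0.23 (adjusted p = 0.998). The log2 change with day was -0.06 ± 0.23 in WT (adjusted p = 0.886) and -0.45 ± 0.23 in Cthrc1-/- (adjusted p = 0.324). The WT value is 0.16 with total-count scaling, and 0.24 without WT day 7 replicate 1, so Notch1 has no settled direction there.

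Notch2 (ENSMUSG00000027878, chromosome 3, 98013527 to 98150361, plus strand) is a widely expressed receptor. It measured 7.33, 7.85 and 6.91 FPKM in WT day 0 and 12.7, 11.8 and 12.9 FPKM in WT day 7, with no overlap. In the knockout it measured 6.75, 10.3 and 10.4 FPKM on day 0 and 12.2, 8.87 and 9.06 FPKM on day 7, and these groups overlapped. The log2 difference of WT day 7 from day 0 was 0.58 ± 0.18, which missed the threshold (edgeR adjusted p = 0.0557) and passed it with DESeq2 (0.62, adjusted p = 0.0109), with total counts (adjusted p = 0.0228) and with both limma fits of FPKM (adjusted p = 0.027). In Cthrc1-/- the log2 difference was -0.01 ± 0.18 (adjusted p = 0.989), and the interaction was -0.58 ± 0.25 (adjusted p = 0.312), so a difference in the day 7 response was not shown. Between the genotypes the log2 difference was 0.19 on day 0 (adjusted p = 0.49) and -0.39 on day 7 (adjusted p = 0.908).

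Notch3 (ENSMUSG00000038146, chromosome 17, 32120820 to 32166852, minus strand) is a receptor known mainly from pericytes and vascular smooth muscle. Its 3 WT day 0 samples agreed closely, at 13.3, 13.4 and 13.4 FPKM, and WT day 7 samples lay on both sides of them, at 10.1, 16.4 and 15.0 FPKM. Cthrc1-/- samples held 11.2, 13.9 and 15.5 FPKM on day 0 and 17.8, 19.9 and 15.5 FPKM on day 7, and the lowest day 7 sample stood just above the highest day 0 sample. The log2 change with day was -0.16 ± 0.15 in WT (edgeR adjusted p = 0.512) and 0.25 ± 0.15 in Cthrc1-/- (adjusted p = 0.433), with an interaction of 0.40 ± 0.22 (adjusted p = 0.4). The WT value was 0.05 with total-count scaling and 0.08 without WT day 7 replicate 1. Between the genotypes Notch3 differed by -0.10 on day 0 (0.01 with total counts) and by 0.30 on day 7 (0.16 without WT day 7 replicate 1), with adjusted p = 0.689 and 0.931. Over the same samples the 7 mural markers summed in WT to 222 to 237 FPKM on day 0 and 217 to 279 FPKM on day 7. In Cthrc1-/- they summed to 62.3 to 156 FPKM on day 0 and 285 to 348 FPKM on day 7, and their part in the Notch3 values was not tested.

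Notch4 (ENSMUSG00000015468, chromosome 17, 34564268 to 34588503, plus strand), a receptor known mainly from endothelium, was the lowest of the 10 genes in all 4 groups. It stood at 1.05, 1.02 and 1.07 FPKM in WT day 0 and at 0.555, 0.86 and 0.327 FPKM in Cthrc1-/- day 0, so every knockout sample lay below every WT sample. On day 7 it was 3.65, 2.89 and 0.923 FPKM in WT and 3.01, 4.73 and 1.84 FPKM in Cthrc1-/-. The 3 knockout samples of day 7 all lay above the 3 of day 0, while WT day 7 replicate 3 lay below all WT day 0 samples. The day 7 log2 difference was 2.28 ± 0.57 in Cthrc1-/- (edgeR adjusted p = 0.0772) and 1.10 ± 0.55 in WT (adjusted p = 0.195). The knockout value passed the threshold with DESeq2 (2.27, adjusted p = 0.00134), with total-count scaling (2.46, adjusted p = 0.0312), with limma of FPKM at pseudocounts of 0.1 (2.25, adjusted p = 0.0331) and 1 (1.36, adjusted p = 0.0423), and with the replicate block (2.29, adjusted p = 0.0454). Without Cthrc1-/- day 0 replicate 3 it was 1.97 (adjusted p = 0.111), and without WT day 7 replicate 1 the WT value was 0.73 (adjusted p = 0.421). Between the genotypes Notch4 differed by -0.93 ± 0.55 on day 0 (adjusted p = 0.289; -0.62 without Cthrc1-/- replicate 3) and by 0.24 ± 0.54 on day 7 (adjusted p = 0.998), with an interaction of 1.18 ± 0.77 (adjusted p = 0.471). The summed level of 9 endothelial markers ran in WT from 86.0 to 91.1 FPKM on day 0 and from 76.6 to 147 FPKM on day 7, and in Cthrc1-/- from 25.1 to 70.7 FPKM on day 0 and from 131 to 215 FPKM on day 7. All 9 of them lay higher in Cthrc1-/- day 7 than in day 0 with no overlap (2 called higher), and their part in the Notch4 values was not tested.

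Within the summed FPKM of the 4 receptors, Notch1 made up 41.7 ± 0.669% in WT and 49.0 ± 5.07% in Cthrc1-/- on day 0, and 36.9 ± 6.67% and 37.4 ± 5.94% on day 7 (SD, n = 3 each). Notch4 made up 2.80% and 1.35% on day 0 and 5.76% and 6.43% on day 7, in the same order. Notch1 and Notch3 together thus made up most of the receptor level in every group, and the mix was tightest in WT day 0.

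Among the ligands, Jag1 (ENSMUSG00000027276, chromosome 2, 137081456 to 137116644, minus strand) is known from the basal epidermis, the follicle and vessel walls. It measured 15.6, 14.0 and 15.6 FPKM in WT day 0 and 19.5, 28.5 and 42.1 FPKM in Cthrc1-/- day 0, with no overlap. On day 7 it measured 11.6, 24.1 and 25.2 FPKM in WT and 26.0, 23.9 and 27.2 FPKM in Cthrc1-/-. Replicate 3 was the highest knockout sample of day 0, and replicate 1 was the lowest sample of WT day 7. The day 0 log2 difference of Cthrc1-/- from WT was 0.87 ± 0.26 (edgeR adjusted p = 0.0738). It passed the threshold with DESeq2 (0.93, adjusted p = 0.0138) and without Cthrc1-/- replicate 1 (1.08, adjusted p = 0.0239), and it was 0.61 without Cthrc1-/- replicate 3 (adjusted p = 0.204). The other log2 differences of Jag1 were 0.22 in WT with day (0.56 without WT day 7 replicate 1, adjusted p = 0.177), -0.36 in Cthrc1-/- with day and 0.29 between the genotypes on day 7, with adjusted p from 0.508 to 0.982 in the fit of all samples.

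Jag2 (ENSMUSG00000002799, chromosome 12, 112907819 to 112929776, minus strand), a ligand of the basal epidermis, measured 28.4, 29.4 and 29.2 FPKM in WT on day 0 and 11.0, 19.6 and 28.0 FPKM on day 7. Knockout samples held 25.3, 20.4 and 18.3 FPKM on day 0 and 20.4, 28.0 and 23.4 FPKM on day 7. Every sample of the other 3 groups lay below the lowest WT day 0 sample. The log2 difference was -0.79 ± 0.26 for WT day 7 against day 0 (edgeR adjusted p = 0.0682) and -0.54 ± 0.26 between the genotypes on day 0 (adjusted p = 0.195). Cthrc1-/- day 7 and day 0 differed by 0.00 ± 0.26 (adjusted p = 0.995), and the interaction was 0.79 ± 0.36 (adjusted p = 0.338).

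Dll1 (ENSMUSG00000014773, chromosome 17, 15367354 to 15376872, minus strand), a ligand found in basal keratinocytes and other cells, ran close to Jag2. WT samples gave 9.18, 9.53 and 9.77 FPKM on day 0 and 2.42, 5.32 and 8.19 FPKM on day 7. Knockout samples gave 7.47, 6.88 and 4.14 FPKM on day 0 and 6.23, 9.58 and 6.15 FPKM on day 7. Both the WT day 7 and the Cthrc1-/- day 0 samples lay below all of WT day 0. The log2 difference of WT day 7 from day 0 was -1.07 ± 0.37 (edgeR adjusted p = 0.08), and between the genotypes on day 0 it was -0.71 ± 0.37 (adjusted p = 0.231). Neither the change in Cthrc1-/- (0.08, adjusted p = 0.941) nor the interaction (1.14 ± 0.52, adjusted p = 0.336) passed. In WT day 7, replicate 1 was lowest for both Jag2 and Dll1 and replicate 3 highest, in the order of the keratinocyte marker sums, whose part was not tested. Both passed with DESeq2 (Jag2 -0.74, adjusted p = 0.0331; Dll1 -1.02, adjusted p = 0.0373) and without WT day 7 replicate 3 (Jag2 -1.08, adjusted p = 0.0251; Dll1 -1.46, adjusted p = 0.0353). Without replicate 1 of that group the values were smaller (Jag2 -0.44, adjusted p = 0.184; Dll1 -0.65, adjusted p = 0.197). The day 0 difference of Dll1 was -0.46 without Cthrc1-/- replicate 3 (adjusted p = 0.519). On the opposite strand A930024N18Rik covers 20.5% of Dll1's exon bases, and it has no counts in the deposited table. How strands were counted is not given, so whether its reads entered the Dll1 counts is not known.

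Dll4 (ENSMUSG00000027314, chromosome 2, 119325784 to 119335962, plus strand) is the ligand of sprouting endothelium. It measured 4.40, 4.57 and 3.94 FPKM in WT day 0 and 3.01, 2.38 and 1.23 FPKM in Cthrc1-/- day 0, with no overlap. On day 7 it measured 5.37, 4.61 and 2.66 FPKM in WT and 3.72, 6.57 and 3.50 FPKM in Cthrc1-/-, so the genotypes overlapped. The log2 difference between the genotypes was -1.04 ± 0.41 on day 0 (edgeR adjusted p = 0.134; -0.73 without Cthrc1-/- replicate 3, adjusted p = 0.314) and 0.03 ± 0.41 on day 7 (adjusted p = 0.998). The log2 change with day was 0.88 ± 0.41 in Cthrc1-/- (adjusted p = 0.292) and -0.19 ± 0.41 in WT (adjusted p = 0.788). All 9 endothelial markers, like Dll4 and Notch4, lay lower in Cthrc1-/- than in WT on day 0 with no overlap (0 called). So did all 6 fibroblast, all 6 skeletal muscle, 5 of 7 mural, 4 of 6 leukocyte and 4 of 5 adipocyte markers, while 11 of 12 hair follicle markers lay higher with no overlap. The part of any of these in the values of Dll4 and Notch4 was not tested.

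The mix of ligands differed between groups in its mean. Jag1 made up 26.0 ± 1.51% of the summed FPKM of the 4 ligands in WT and 49.5 ± 14.4% in Cthrc1-/- on day 0 (35.3% to 64.1% in the knockout), and 40.8 ± 3.57% and 42.1 ± 6.09% on day 7 (SD, n = 3 each). Jag2 made up 50.1% and 36.2% on day 0 and 38.8% and 38.7% on day 7, in the same order. Jag2 was thus the largest ligand share in all WT day 0 samples, and Jag1 ranged widely between the Cthrc1-/- day 0 samples.

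**Figure D3:**
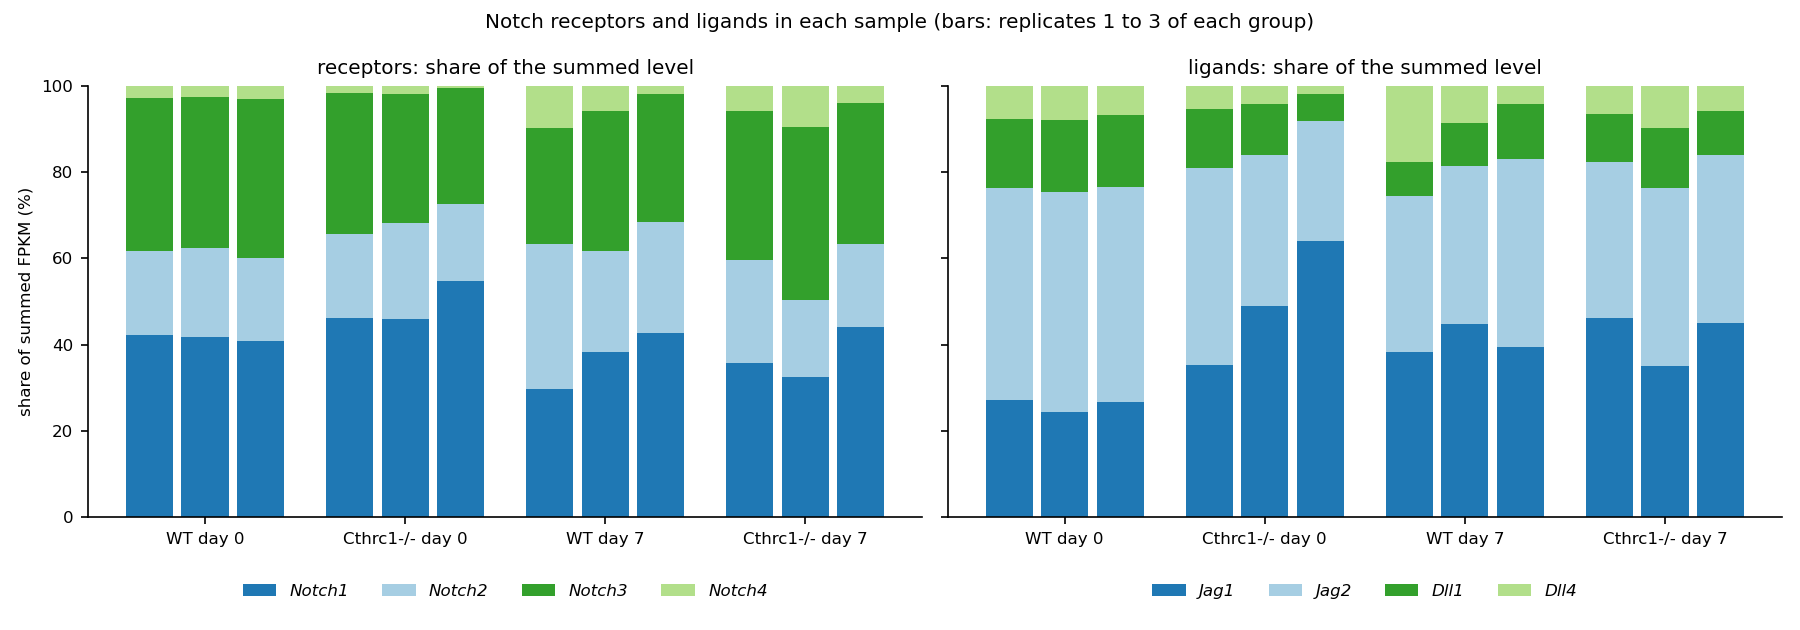
Share in percent (vertical axis) of each receptor (left) and each ligand (right) in the summed FPKM of its role, 1 bar per sample in 4 groups. On day 0 the Jag1 share lies between 24.3% and 27.1% in WT samples and between 35.3% and 64.1% in knockout samples.

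The targets gave both calls. Hes1 (ENSMUSG00000022528, chromosome 16, 30064384 to 30067796, plus strand) encodes a repressor that Notch switches on, and that BMP and other signals also control. It measured 74.6, 73.9 and 81.1 FPKM in WT day 0 and 13.4, 24.3 and 31.9 FPKM in WT day 7. It measured 59.7, 37.9 and 42.3 FPKM in Cthrc1-/- day 0 and 22.7, 26.5 and 31.5 FPKM in Cthrc1-/- day 7. All 6 day 7 samples lay below all 6 day 0 samples, and all Cthrc1-/- day 0 samples lay between WT day 0 and the day 7 samples. In WT, Hes1 fell by 1.94 ± 0.27 on the log2 scale (3.84-fold; edgeR adjusted p = 0.005), and this was called under all 14 alternatives, which gave -2.18 to -1.60. Without WT day 7 replicate 1, the lowest sample, it was -1.60 (adjusted p = 0.00791). In Cthrc1-/- the log2 difference was -0.96 ± 0.26 (edgeR adjusted p = 0.0919) and -0.97 with DESeq2 (adjusted p = 0.00998). Without Cthrc1-/- day 0 replicate 3 it was -1.07 (edgeR adjusted p = 0.0757). The interaction was 0.98 ± 0.37 (adjusted p = 0.267), so a smaller response in Cthrc1-/- was not shown. Between the genotypes Hes1 differed by -0.81 ± 0.26 on day 0 (edgeR adjusted p = 0.0839), and by -0.77 with DESeq2 (adjusted p = 0.0364). The day 0 value passed the threshold without Cthrc1-/- replicate 1 (-1.075, edgeR adjusted p = 0.028). Without Cthrc1-/- replicate 3 it was -0.70 (edgeR adjusted p = 0.215). On day 7 the genotypes differed by 0.17 ± 0.26 (edgeR adjusted p = 0.996).

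Marker RNA of several cell types also differed between the days in WT. The 6 basal keratinocyte markers had a median log2 change of -1.13 in WT day 7 (2 of 6 called lower, 5 of 6 without overlap), 12 of 12 hair follicle markers lay higher without overlap (9 called), and 4 of 4 adipocyte markers tested were called lower. For the knockout, Hes1 also lay lower on day 7 without overlap, and 1.46% of all genes were called. There 0 of the 6 basal (median -0.43), 0 of the 12 hair follicle (median -0.93) and 0 of the 4 adipocyte markers (median -0.60) were called, and none was without overlap. Other lists did shift in the knockout. Higher without overlap lay 9 of 9 endothelial (2 called), 5 of 7 mural (1 called) and 5 of 6 leukocyte markers (0 called), beside 21.5% of all genes. The part of these markers in the Hes1 values was not tested.

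Nrarp (ENSMUSG00000078202, chromosome 2, 25180758 to 25183339, plus strand) measured 14.9, 18.3 and 15.5 FPKM in WT day 0 and 27.8, 33.5 and 45.3 FPKM in Cthrc1-/- day 0. On day 7 it measured 13.5, 23.5 and 27.2 FPKM in WT and 31.9, 32.4 and 35.0 FPKM in Cthrc1-/-. Knockout samples lay above WT samples on both days with no overlap, and Nrarp was the 1 gene of the 10 for which this held on day 7. On day 0 the log2 difference was 1.01 ± 0.20 (2.02-fold higher in Cthrc1-/-; edgeR adjusted p = 0.0311). The call was lost without Cthrc1-/- replicate 3 (0.86, adjusted p = 0.0711), without Cthrc1-/- replicate 2 (1.03, adjusted p = 0.0713), without any 1 of the WT day 0 samples (0.95 to 1.10, adjusted p from 0.1 to 0.112) and with only the compared groups in the fit (1.08, adjusted p = 0.0792). On day 7 the log2 difference was 0.58 ± 0.20 (unadjusted p = 0.0155, edgeR adjusted p = 0.907). The day 7 change was 0.19 ± 0.20 in WT (adjusted p = 0.55) and -0.25 ± 0.20 in Cthrc1-/- (adjusted p = 0.557), and the interaction was -0.43 ± 0.28 (adjusted p = 0.466). Of the hair follicle markers, 10 of 12 were called higher in Cthrc1-/- on day 0. Among the 3 knockout samples of that day their sum was ordered like Nrarp, replicate 1 lowest and replicate 3 highest. In Cthrc1-/- day 7 the sums were 3890, 541 and 5693 FPKM in replicates 1 to 3, beside 31.9, 32.4 and 35.0 FPKM for Nrarp. In WT the sum was 14.2 to 17.9 FPKM on day 0 and 1743 to 4203 FPKM on day 7, while the Nrarp values of these groups overlapped. The part of these markers in the Nrarp values was not tested. On the opposite strand Gm38287 covers 79.4% of Nrarp's exon bases. Its counts were 0 to 8, against 2157 to 6493 for Nrarp. The strand setting of the counting is not given in the sources used here.

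Groups that do not overlap can be counted without a model, on the FPKM scale. For WT, day 7 against day 0, 1 of the 10 genes lay higher with no overlap (Notch2; 29.8% of all genes tested) and 3 lay lower (Jag2, Dll1 and Hes1; 14.1%). For the knockout, 3 lay higher (Notch3, Notch4 and Dll4; 21.5%) and 1 lower (Hes1; 4.99%). Between the genotypes on day 0, 2 lay higher in Cthrc1-/- (Jag1 and Nrarp; 21.5%) and 5 lower (Notch4, Jag2, Dll1, Dll4 and Hes1; 19.8%). On day 7, 1 lay higher in Cthrc1-/- (Nrarp; 6.46%) and 0 lower (2.67%). The 5 genes that lay lower on day 0 were not called by edgeR in that comparison.

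**Figure D4:**
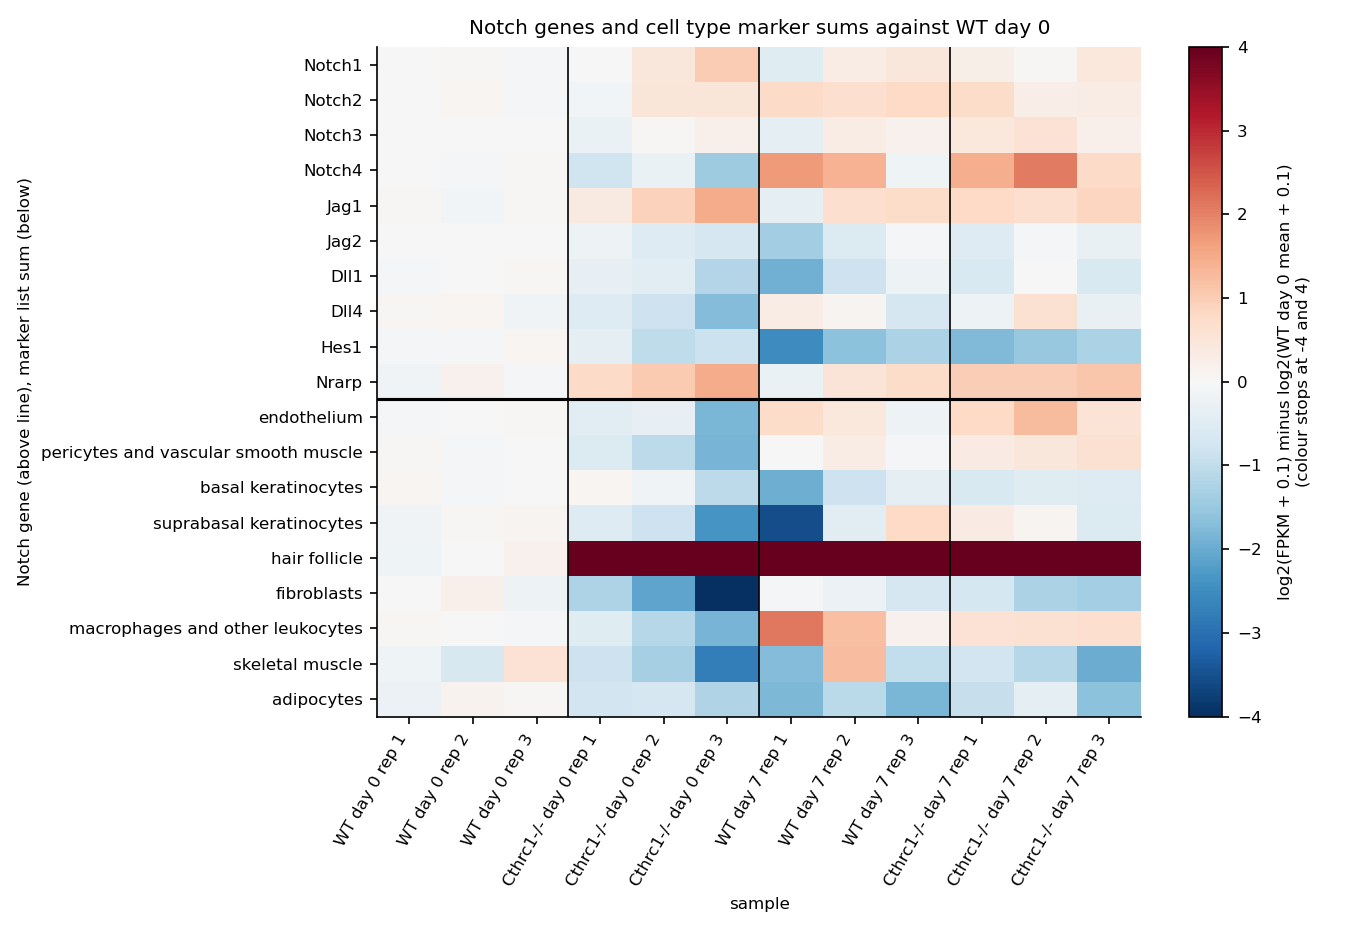
Each of the 10 genes (above the line) and the summed level of each marker list (below it) in the 12 samples, as log2(FPKM + 0.1) minus log2 of the WT day 0 mean + 0.1 (red higher, blue lower, colour stopped at -4 and 4). The hair follicle sum, 14.2 to 17.9 FPKM in WT day 0, is at least 261 FPKM in the other 9 samples, and Hes1 is blue in all 9.

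For each gene the closest profiles over the 12 samples were sought by Pearson r of log2(FPKM + 1), as a description. The 12 samples share the 4 groups, so any gene that differs between groups in the same way scores high. Hes1 ran closest to Bmp2, a bone morphogenetic protein (r = 0.988), and Id3, a target of that pathway (r = 0.985). Bmp2 averaged 18.5 FPKM in WT and 9.80 FPKM in the knockout on day 0, and 3.38 and 3.61 FPKM on day 7. Notch4 ran closest to Ehd4 (r = 0.974) and Adcy4 (r = 0.972), and Dll4 to the Notch-modifying glycosyltransferase Mfng (r = 0.963) and to Kank2 (r = 0.956). Jag1 ran closest to the ephrin Efnb1 (r = 0.981) and to Plcd1 (r = 0.976), and Notch1 to the epidermal regulator Zfp750 (r = 0.984) and to Reps1 (r = 0.984). Chdh was the second gene for both Jag2 (r = 0.974) and Dll1 (r = 0.974), after Tns4 (r = 0.990) for Jag2 and C77080 (r = 0.980) for Dll1. Nrarp was matched by Nipsnap1 (r = 0.961) and Pigo (r = 0.960), Notch2 by March5 (r = 0.926) and F5 (r = 0.925), and Notch3 by Tmem125 (r = 0.928) and Iars2 (r = 0.925). Among the 10 genes themselves, Jag2 and Dll1 had the highest r (0.971), then Jag1 and Nrarp (0.938), and Notch2 and Hes1 had the lowest (-0.843), each over 12 samples.

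A list of 40 other pathway genes was tested beside the 10, of which 36 had a mean level of at least 1 FPKM. In WT day 7 against day 0 edgeR called 7 of the 36, 5 higher and 2 lower, beside 13.1% of all genes, and their median log2 change was 0.07. With only the compared groups, or with no filter, 4 were called. The other targets did not move as 1 group. Heyl (4.06, 8.28 and 9.03 FPKM in WT day 7, after 1.25, 1.15 and 1.45 FPKM) rose by 2.26 ± 0.50 (log2, adjusted p = 0.0191). Hey2 (1.29, 1.96 and 2.62 FPKM after 0.606, 0.615 and 0.708 FPKM) rose by 1.39 ± 0.25 (adjusted p = 0.0089). Hey1 (2.08, 2.91 and 2.30 FPKM after 4.46, 5.01 and 4.66 FPKM) fell by 1.14 ± 0.30 (adjusted p = 0.0346), like Hes1. Of these calls, Hey2 held under all 14 alternatives, Heyl under 10 and Hey1 under 7. Hes5, the classical neural target whose window holds the motif 2 times, stood at 0 to 0.231 FPKM in all 12 samples, with 0 to 25 counts, and was not tested.

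Of the genes that shape ligands and receptors, Mib2, a ubiquitin ligase acting on ligands, fell by 1.08 ± 0.12 in WT (edgeR adjusted p = 0.00268), from 10.3, 9.59 and 10.2 FPKM to 4.44, 5.86 and 6.00 FPKM. That call held under all 14 alternatives. Lfng, which adds sugars to Notch receptors, rose by 0.84 ± 0.20 (adjusted p = 0.0266). The protease Adam10, which makes the first cut of the bound receptor, rose by 0.54 ± 0.15 (adjusted p = 0.044), and Ncstn, a subunit of gamma-secretase, which makes the next cut, rose by 0.50 ± 0.14 (adjusted p = 0.0417). Alternatives kept the call for Lfng in 9 of 14, for Adam10 in 7 of 14 and for Ncstn in 7 of 14. Rbpj, at 4.55 to 5.18 FPKM in WT day 0 and 11.1, 5.06 and 5.36 FPKM in WT day 7 (replicates 1 to 3), was called in no comparison.

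In Cthrc1-/- day 7 against day 0, 2 of 36 were called, 1 higher and 1 lower, beside 1.46% of all genes, with a median log2 change of 0.18. Hey2 rose by 1.25 ± 0.25 (edgeR adjusted p = 0.044), from 0.618, 0.963 and 0.798 FPKM to 2.25, 1.74 and 2.31 FPKM. Mib2 fell by 0.58 ± 0.12 (adjusted p = 0.044). The alternatives kept the call of Hey2 in 6 of 14 and that of Mib2 in 3 of 14. The number called was 8 with total-count scaling and 6 or 7 with limma, all higher, 5 with DESeq2 (4 higher), 1 with the replicate block, and 0 with no filter or with only the compared groups. Heyl differed by 0.57 (adjusted p = 0.57; 1.27 without day 0 replicate 3, adjusted p = 0.123) and Hey1 by -0.04 (adjusted p = 0.963; 0.15 with total counts). Dlk1, an atypical ligand that restrains the pathway, gave the widest value, 4.90 ± 1.09 (adjusted p = 0.0585). It stood at 0.152, 0.0968 and 0.0374 FPKM on day 0 (12 to 63 counts) and at 5.5, 3.06 and 1.41 FPKM on day 7. WT samples overlapped, at 0.823, 0.0677 and 1.78 FPKM on day 0 and 0.545, 1.94 and 1.70 FPKM on day 7. The WT change was called under 0 of 14 alternatives (log2 -0.14 to 1.42). The genotype difference on day 0 was called under 1 of 14, DESeq2 (-3.24, adjusted p = 0.00429). The knockout change with day passed the threshold with DESeq2 (adjusted p = 5.86e-06) and with total-count scaling (5.09, adjusted p = 0.031). It also passed with limma at pseudocounts of 0.1 (3.98, adjusted p = 0.0284) and 1 (1.87, adjusted p = 0.0334). Without Cthrc1-/- day 0 replicate 3 it was 4.51 (edgeR adjusted p = 0.0849).

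Between the genotypes on day 0, 2 of 36 were called, both lower in Cthrc1-/-, beside 5.78% of all genes, with a median log2 difference of -0.21. Mib2 was lower by a log2 difference of -0.55 ± 0.12 (edgeR adjusted p = 0.0357) and Pofut1, which adds the fucose that Lfng extends, by -0.72 ± 0.16 (adjusted p = 0.0359). The alternatives kept these calls in 4 and 5 of 14. DESeq2 called 8 of 36 (2 higher and 6 lower), total-count scaling called 1, and either limma fit, no filter and only the compared groups called 0. Heyl measured 1.51, 4.04 and 8.81 FPKM in the Cthrc1-/- samples, and its log2 difference of 1.75 ± 0.49 missed the threshold (adjusted p = 0.0622). It passed with DESeq2 (1.81, adjusted p = 0.00406) and without Cthrc1-/- replicate 1 (2.16, adjusted p = 0.00951), and was 1.05 without replicate 3 (adjusted p = 0.175). As with Notch1, Notch2, Notch3, Jag1 and Nrarp, its highest sample was replicate 3, that with the highest hair follicle sum. Notch4, Jag2, Dll1 and Dll4 were lowest in that sample, and the relation of these genes to the sum was not tested. Hey1 differed by -0.87 ± 0.30 (adjusted p = 0.0977), and passed with DESeq2 (-0.83, adjusted p = 0.0375) and without Cthrc1-/- replicate 1 (-1.19, adjusted p = 0.0306); without replicate 3 it was -0.57 (adjusted p = 0.165). On day 7, and for the interaction, edgeR called 0 of 36, with median log2 values of -0.04 and 0.09, while DESeq2 called 0 on day 7 and 2 for the interaction, both higher.

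**Figure D5:**
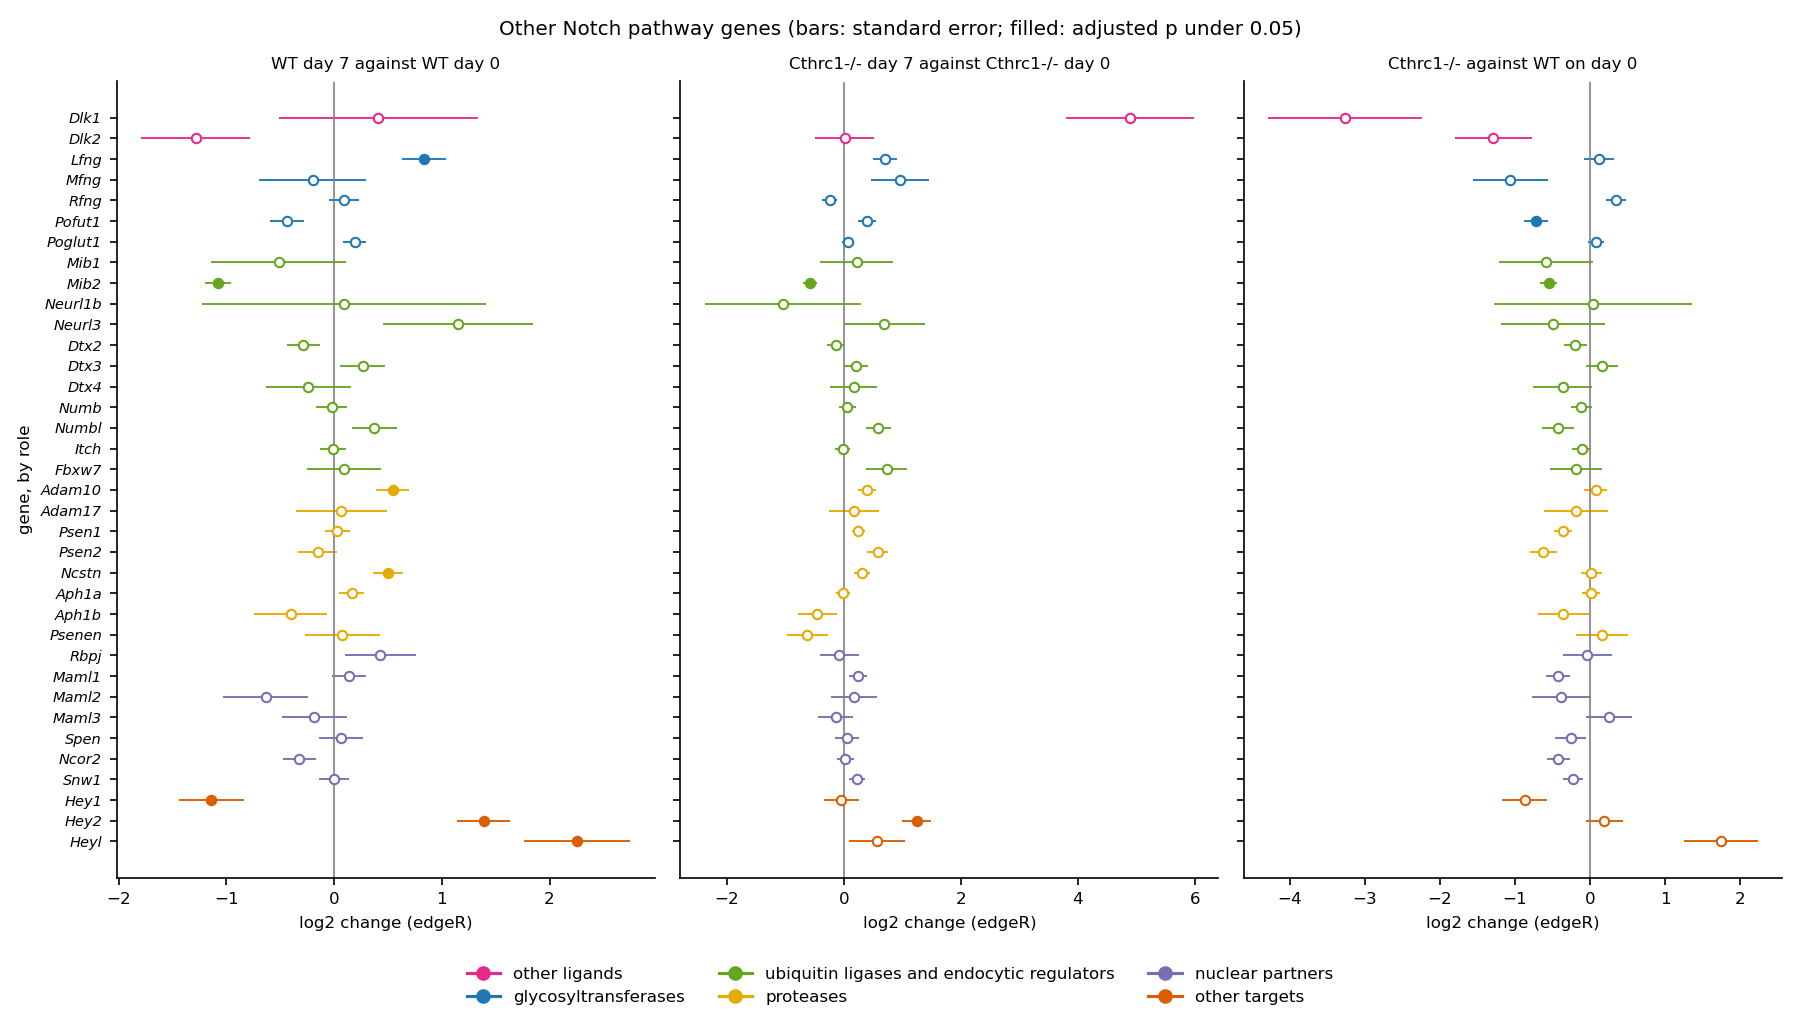
Log2 change by edgeR (horizontal axis, scaled separately in each panel) of the 36 other pathway genes tested (vertical axis, by role) in 3 comparisons; bars are the standard error and filled points have an adjusted p under 0.05. In WT day 7 against WT day 0, 5 filled points lie to the right and 2, Mib2 and Hey1, to the left.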

How the data were processed

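RNA-seq of polyadenylated RNA from 12 samples was used, 3 per group, grouped by genotype and day from the sample titles. The deposited table holds counts and FPKM per gene, side by side. Per the submitters' processing notes, the authors used cutadapt 1.9, HISAT2 2.0.4, UMI-tools, StringTie 1.3.4d, DESeq2 and edgeR with the GRCm38 genome; which step used which tool and how strands were counted are not given in the sources used here. The deposited FPKM give 0.0001 at a count of 0, set to 0 here, and the deposited counts are whole numbers. Counts of 4 are 3.16 to 4.05 times as frequent as the mean of 3 and 5, for a reason not given. Symbols were found for 55141 of 55401 gene IDs, and coordinates come from the GENCODE M21 annotation of GRCm38.

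Genes with a mean of at least 1 FPKM (14313) were tested with edgeR 4.0.16 in R 4.3.3 (TMM, quasi-likelihood, a mean per group, all 12 samples), with Benjamini-Hochberg adjustment. Standard errors were derived from the F statistic and the log2 change. The alternatives were DESeq2 1.42.0, limma 3.58.1 on log2(FPKM + 1) and log2(FPKM + 0.1), no filter, total-count scaling, only the groups compared, counts divided by 4, a replicate block, and each replicate left out. Each p-value of the main fit sets a change against 1 spread per gene, estimated within the groups from all 12 samples (3 biological replicates per group). Groups can differ in that spread. The SD of Jag1, for example, was 0.956 FPKM for WT and 11.4 FPKM for Cthrc1-/- at day 0. Between the genotypes at day 0, 827 genes were called by the main fit and 19 with only the groups compared. The code was tested on simulated data, on which DESeq2 made false calls more often than edgeR and each tool missed most of the smaller changes, so a gene not called can still differ. Named genes were the 10 Notch genes, Cthrc1, set pathway genes and those called, up to 6 per comparison by p, and the 2 closest profiles per gene. The genes and lists were chosen with earlier results of these data known.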

Additional observations from a re-analysis of the deposited data

How the results depend on the processing

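Of the calls among the 10 genes, the fall of Hes1 in WT day 7 held under every alternative run, and the call of Nrarp as higher in Cthrc1-/- on day 0 was lost under 6 of 14. In WT day 7 against day 0, those called numbered 1 by edgeR, 4 with DESeq2, 2 with either limma fit, 2 with only the compared groups and 2 with total-count scaling, and 1 to 3 with a replicate left out (3 without WT day 7 replicate 3). For the knockout, day 7 against day 0, they numbered 0 by edgeR, 2 with DESeq2, and 1 with either limma fit, with total-count scaling and with the replicate block (Notch4, 2.29). For the genotypes on day 0 they numbered 1 by edgeR, 3 with DESeq2, 0 with only the compared groups, and 0 to 3 with a replicate left out (3 without Cthrc1-/- replicate 1). On day 7 and for the interaction they numbered 0 throughout.

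Counts over all genes depended more on the settings. WT day 7 against day 0 gave 1880 genes by edgeR, 3551 with DESeq2 and 527 to 2043 with a replicate left out. Cthrc1-/- day 7 against day 0 gave 209, 1409 with DESeq2, 773 and 775 with limma at pseudocounts of 0.1 and 1, 89 with only the compared groups, 747 with total counts and 5 to 522 with a replicate left out. The genotypes on day 0 gave 827, 2787 with DESeq2, 275 with no filter, 19 with only the compared groups and 18 to 2146 with a replicate left out. The genotypes on day 7 gave 3, 62 with DESeq2, 5 and 8 with limma and 0 to 4 with a replicate left out. The interaction gave 2, 681 with DESeq2, 1 and 4 with limma, 1 with no filter, 1 with total counts, 1 with the replicate block and 0 to 242 with a replicate left out. The cause of these shifts was not tested.

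Signs turned only where the log2 change was small and not called. Values follow in the order limma at 0.1, limma at 1 and total counts. For WT, day 7 against day 0, Notch1 (-0.06) became 0.0967, 0.0946 and 0.163, and Notch3 (-0.16) became 0.0139, 0.0149 and 0.0548. For the knockout, Notch2 (-0.01) became 0.15, 0.14 and 0.16 (0.0254 with only the compared groups), and Hey1 (-0.04) became 0.20, 0.14 and 0.15 (0.012 with only the compared groups, 0.00209 with the block). Jag2 there (0.00) was -0.00563 with DESeq2 and -0.0179 with the block. For the genotypes on day 0, Notch3 (-0.10) became 0.000902, 0.00159 and 0.0108.

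With a replicate left out, the ranges that cross 0 in WT day 7 against day 0 were -0.19 to 0.24 for Notch1, -0.28 to 0.0768 for Notch3 and -0.38 to 0.0864 for Dll4. For the knockout they were -0.17 to 0.11 for Notch2, -0.14 to 0.18 for Jag2, -0.18 to 0.27 for Dll1 and -0.34 to 0.28 for Hey1. For the genotypes on day 7 they were -0.16 to 0.17 for Notch1, -0.17 to 0.70 for Notch4, -0.00189 to 0.54 for Jag2, -0.33 to 0.31 for Dll4 and -0.0744 to 0.41 for Hes1. Of 1030 values of 19 genes compared with their reported value, 881 kept direction and side of the threshold, 74 lost the call, 32 gained it and 43 changed sign.

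Whether a day 0 and a day 7 sample with the same replicate number come from the same animal is not given by the labels. For such pairs, in replicates 1 to 3, the r of the deviations was 0.087, 0.023 and 0.074 in WT. In Cthrc1-/- it was -0.065, -0.124 and 0.426. Each WT sample correlated best with its own number, a hint from the data and not the design, and in Cthrc1-/- this did not hold. The replicate block gave 1467 genes for WT, 291 for Cthrc1-/-, 883 for the genotypes on day 0 and 2 on day 7, and it cost the calls of Lfng and Ncstn in WT and of Mib2 in Cthrc1-/-. By depth, Notch4, at 144 to 2957 counts per sample, was the most limited of the 10 genes.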
